A study of Mus musculus with 6 samples.

Results

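The mevalonate arm examined here comprised 7 genes, taken by name as the enzymes that carry acetyl-CoA to farnesyl diphosphate (FPP): *Acat2*, *Hmgcs1*, *Mvk*, *Pmvk*, *Mvd*, *Idi1* and *Fdps*. The count table held 24562 gene symbols, with each unnamed row counted under its own identifier. Of these, 11470 passed the filter on low counts and were tested, and all 7 members were among those tested. The reduction of HMG-CoA to mevalonate, which lies between *Hmgcs1* and *Mvk*, is not among the 7 and was not analysed here. The cells were bone-marrow-derived macrophages (BMDMs), grown for 7 days from the marrow of C57BL/6J mice, given as female for this series, in medium with 15% L929 cell supernatant, a source of macrophage colony-stimulating factor, and left unstimulated. Mice used for marrow cultures were aged 8 to 14 weeks, a range stated for males and females together. All mice carried the Acly fl/fl allele, in which loxP sites flank exon 9 of *Acly*, the gene for ATP citrate lyase. The 3 AclyM-KO libraries came from mice that also carried Lyz2-Cre, in which the lysozyme promoter drives Cre recombinase in the myeloid lineage, and the 3 control libraries from littermates without Cre. The study describes its replicates as technical replicates of marrow pooled from 3 mice, so the p-values below measure the spread between these libraries and not between animals.

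Cytosolic acetyl-CoA, the product of ATP citrate lyase, is the carbon source of every isoprenoid. Acetyl-CoA units are condensed to HMG-CoA, which is reduced to mevalonate, phosphorylated, decarboxylated to isopentenyl diphosphate and joined into FPP. From FPP the route divides, since squalene synthase commits it to cholesterol while other enzymes use it for protein prenylation, dolichol, ubiquinone and haem A. The genes of the arm are classical targets of SREBP-2, a membrane-bound transcription factor that is released when sterol in the endoplasmic reticulum falls, and that binds promoters together with the factors NF-Y and Sp1.

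Library totals, summed over 1 transcript row per gene, were 11120034 to 13598887 counts in the controls, and 11386212, 25814853 and 11462221 in AclyM-KO replicates 1, 2 and 3, so AclyM-KO replicate 2 was the deepest. *Acly* itself was counted 2424, 3117 and 2614 times in control replicates and 1072, 2617 and 1127 times in AclyM-KO, a log2 change of −1.25 (SE 0.0661, edgeR adjusted p = 5.58e-07). Counts cover the whole transcript, of which only exon 9 is removed, and so check the deletion only in part. Of 10 macrophage markers, 4 were lower in AclyM-KO cells, where 5.65% of all tested genes were, namely *Lyz2* (log2 change −1.05, the gene that carries the Cre insertion), *Mertk* (−0.67), *Aif1* (−0.49) and *Csf1r* (−0.48), and the list summed to 23996 to 24816 CPM (counts scaled to the same library size in every sample) in control and 15327 to 17846 CPM in AclyM-KO libraries. Most of that gap was *Lyz2*, without which the sums were 10948 to 11036 and 9720 to 10866 CPM. Of the 6 markers not called, *Adgre1*, *Cd68*, *Itgam*, *Mrc1* and *Fcgr1* overlapped between the groups and *Cd14* (log2 change 0.16) lay above all controls. Lists of 10 markers each for other cells were low in both groups. Neutrophil markers summed to 49.7 to 52.0 CPM in control and 73.6 to 79.8 CPM in AclyM-KO, with 1 of 5 tested genes higher (*Mmp8*, log2 change 1.20), beside 6.7% of all tested genes, and *Ly6g*, *Elane* and *Mpo* at 0 to 9 counts. Without *Mmp8* the neutrophil sums overlapped, at 28.0 to 31.5 and 29.0 to 30.5 CPM. Dendritic cell markers summed to 17.2 to 22.4 and 22.6 to 31.6 CPM with 0 of 2 tested genes called, lymphocyte markers to 61.5 to 69.7 and 37.0 to 55.1 CPM with 1 of 2 lower (*Cd4*, −0.55; *Cd3e* and *Cd3g* had no counts), and erythroid, mast and stromal markers to less than 1 CPM in every library. In bulk RNA, fewer cells of a type and less RNA per cell cannot be told apart.

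The first question was how the levels of the 7 transcripts compare within a cell population. Levels between genes were compared per length, as RPKM, that is CPM divided by the transcript length in kilobases. In control BMDMs *Hmgcs1*, whose product condenses acetoacetyl-CoA with acetyl-CoA to HMG-CoA, was the most abundant at 59.6 ± 3.90 RPKM (SD, n = 3). *Fdps* (FPP synthase) followed at 20.4 ± 2.07 RPKM, then *Mvd* (mevalonate diphosphate decarboxylase) at 15.8 ± 1.66 RPKM. The kinases came next, with *Pmvk* (phosphomevalonate kinase) at 9.89 ± 0.419 RPKM and *Mvk* (mevalonate kinase) at 7.73 ± 0.576 RPKM. *Acat2*, the cytosolic thiolase that makes acetoacetyl-CoA, stood at 3.98 ± 0.472 RPKM, and *Idi1*, the isomerase of isopentenyl diphosphate, was lowest at 1.53 ± 0.354 RPKM. The ranges of neighbours in this order did not overlap in the control libraries. The level of *Acat2*, and with it its place in the order and its share of the arm in both groups, may be understated, because much of its sequence is shared with *Acat3* (described with the relatives).

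In AclyM-KO BMDMs the order was largely kept, with *Hmgcs1* at 179.1 ± 37.8 RPKM, *Fdps* at 90.9 ± 8.93 RPKM and *Mvd* at 55.9 ± 6.47 RPKM. *Acat2* moved up to 23.4 ± 4.18 RPKM, beside *Pmvk* at 22.0 ± 1.85 RPKM, and the ranges of these neighbours overlapped. *Mvk* (14 ± 2.05 RPKM) and *Idi1* (8.47 ± 2.96 RPKM) were lowest, and their ranges just overlapped, since *Idi1* reached 11.9 RPKM in AclyM-KO replicate 2 and *Mvk* had 11.8 RPKM in replicate 1. The most abundant member exceeded the least abundant by 30.4, 54.1 and 37.6 times in control replicates 1, 2 and 3, and by 21.2, 18.7 and 25.6 times in the AclyM-KO replicates. Summed over the 7 members, the arm amounted to 119.0 ± 6.80 RPKM in control and 393.8 ± 54.9 RPKM in AclyM-KO libraries, 3.31 times as much, with ranges of 114.6 to 126.8 and 344.4 to 452.8 RPKM that did not meet.

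**Figure D1:**
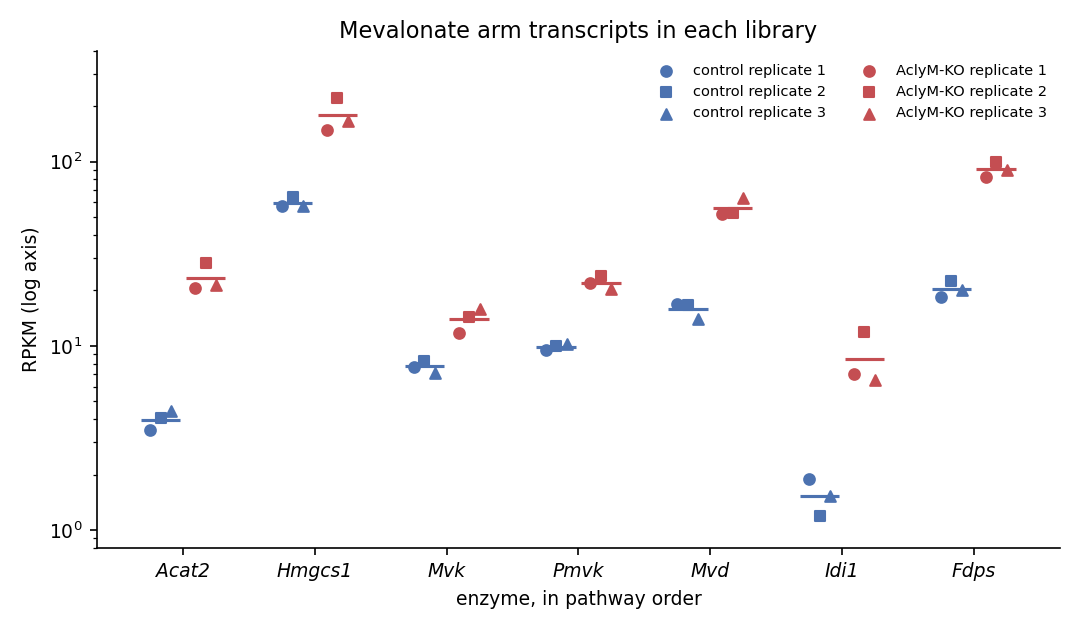
RPKM of the 7 mevalonate arm transcripts in each of the 3 control (blue) and 3 AclyM-KO (red) libraries, on a log axis, with genes in pathway order and marker shape giving the replicate and short lines the group means. Every AclyM-KO point lies above every control point of the same gene, and *Hmgcs1* is highest and *Idi1* lowest in all 6 libraries.

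The second question was how each step differed between AclyM-KO and control cells. All 7 members were higher in AclyM-KO BMDMs at an edgeR adjusted p of 0.05 or less, against 6.7% of all tested genes called higher, and 6 of the 7 (all but *Mvk*) were also changed by a log2 value of 1 or more, which 1.3% of tested genes were. For all 7, the lowest AclyM-KO library lay above the highest control library, a separation that 16.3% of tested genes showed. The log2 changes ran from 0.86 for *Mvk* to 2.56 for *Acat2*, with a median of 1.82, whereas over all tested genes the median was 0.00 and the range from the 5th to the 95th percentile was −0.47 to 0.58. Only 7 genes of the 11470 had a larger increase than *Acat2* and 8 a larger one than *Idi1*, while 238 exceeded *Mvk*.

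The arm opens with *Acat2*. Its normalised level was 7.82, 9.12 and 9.92 CPM in control replicates 1, 2 and 3 and 46.2, 63.5 and 48.3 CPM in the AclyM-KO replicates, from 86, 122 and 110 against 531, 1680 and 554 counts. The lowest AclyM-KO library was 4.66 times the highest control library, the widest separation among the members. The fitted increase was 5.91-fold (95% confidence interval 4.74 to 7.37, log2 change 2.56, SE 0.146, edgeR adjusted p = 9.81e-07). *Hmgcs1*, the next enzyme, was measured at 187.0, 208.0 and 185.3 CPM in control and 483.8, 719.1 and 540.4 CPM in AclyM-KO libraries. With 2054 to 19033 counts a library it was the most deeply sampled member. It rose 3.01-fold (95% interval 2.49 to 3.63, log2 change 1.59, SE 0.124, edgeR adjusted p = 1.40e-05), less than the thiolase that precedes it.

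The enzymes that act on mevalonate and its phosphates changed by unequal amounts. *Mvk* gave 12.4, 13.3 and 11.5 CPM in control and 18.9, 23.0 and 25.4 CPM in AclyM-KO libraries, and the gap between the groups was the narrowest of the arm, at 1.42 times. Its increase of 1.81-fold (95% interval 1.49 to 2.21, log2 change 0.86, SE 0.130) had an edgeR adjusted p of 0.00189. *Pmvk* gave 11.3, 11.9 and 12.3 CPM against 26.1, 28.6 and 24.2 CPM, and varied least between libraries, with coefficients of variation of 4.24% in control and 8.38% in AclyM-KO. It rose 2.23-fold (95% interval 1.89 to 2.64, log2 change 1.16, SE 0.110, edgeR adjusted p = 6.70e-05), so the intervals of the pair of kinases overlapped. *Mvd* gave 29.7, 29.2 and 24.4 CPM in control and 90.8, 92.5 and 111.2 CPM in AclyM-KO libraries. Its increase of 3.52-fold (95% interval 3.0 to 4.13, log2 change 1.82, SE 0.105, edgeR adjusted p = 1.13e-06) lay above the intervals of both kinases.

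The arm closes with the isomerase and the prenyltransferase. *Idi1* was the sparsest member, at 63, 48 and 51 counts (control) against 244, 951 and 226 counts (AclyM-KO), or 5.73, 3.59 and 4.60 against 21.2, 35.9 and 19.7 CPM. It was also the most variable, with coefficients of variation of 23.1% and 34.9%. Its increase of 5.68-fold therefore carried the widest interval of the 7 (3.89 to 8.31, log2 change 2.51, SE 0.251, edgeR adjusted p = 1.03e-04). *Fdps*, which joins isopentenyl and dimethylallyl diphosphate into FPP, gave 25.5, 31.2 and 27.9 CPM in control and 113.8, 138.4 and 124.6 CPM in AclyM-KO libraries. Its 4.46-fold increase (95% interval 3.83 to 5.18, log2 change 2.16, SE 0.0996) had the lowest adjusted p of the arm in edgeR, 1.84e-07.

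**Figure D2:**
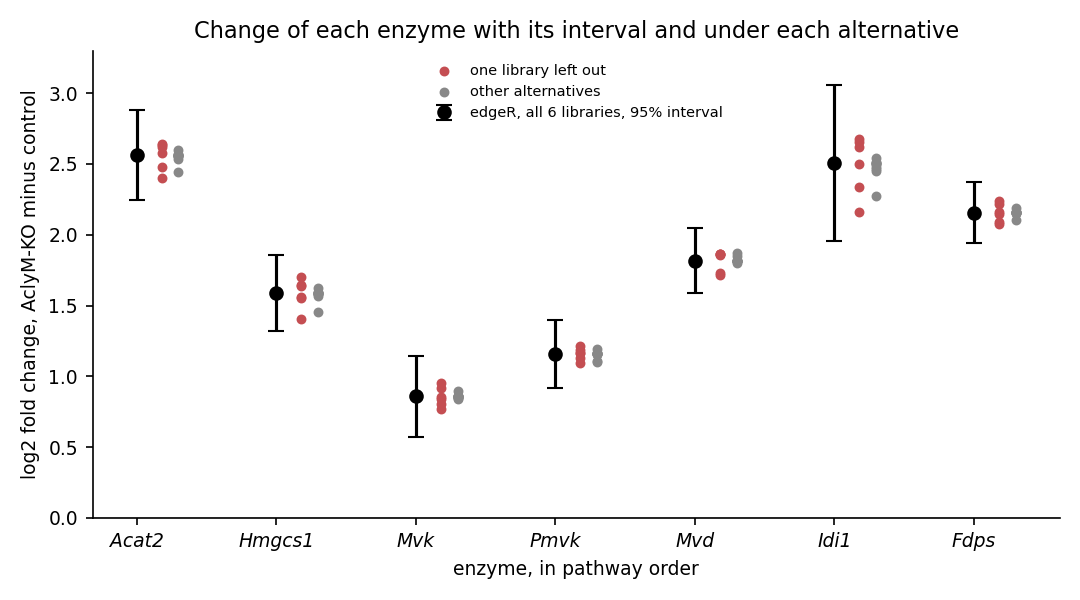
Log2 fold change (AclyM-KO minus control) of each mevalonate arm gene with its 95% confidence interval from the edgeR fit (black), in pathway order. Red points give the change with 1 library left out and grey points the change under the other alternative settings. All 7 intervals lie above 0, from *Mvk* at 0.86 to *Acat2* at 2.56.

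Because the members rose by different amounts, the make-up of the arm differed between the groups. The share of *Hmgcs1* in the summed RPKM of the 7 members was 49.9, 50.6 and 49.8% in control and 43.3, 48.9 and 43.4% in AclyM-KO libraries. *Fdps* went the other way, at 16, 17.8 and 17.6% in control and 23.9, 22.1 and 23.5% in AclyM-KO. The mean share of *Acat2* was 3.35% ± 0.442 in control and 5.93% ± 0.320 in AclyM-KO (SD, n = 3), and that of *Idi1* was 1.3% ± 0.353 and 2.12% ± 0.468. The kinases took smaller shares in AclyM-KO cells, 3.58% ± 0.492 against 6.49% ± 0.226 for *Mvk* and 5.63% ± 0.621 against 8.33% ± 0.576 for *Pmvk*. These 6 shares did not overlap between the groups, each with an exact two-sided permutation p of 0.10, the smallest that 3 against 3 libraries can give, so none could pass 0.05. The share of *Mvd*, 13.3% ± 1.26 and 14.4% ± 2.49, overlapped (exact permutation p = 0.60). The sizes of these differences depended on how levels were taken. With all RefSeq rows of a gene summed, the difference was 1.37 percentage points for *Acat2* in place of 2.58. For *Idi1* it was 0.44 in place of 0.82. Rows of the same gene hold nearly the same counts, as for *Hmgcs1* with 2056 and 2045 in control replicate 1. The sum therefore gives more weight to members with several rows than to *Acat2* and *Idi1*, which have 1 row each. With shares of CPM the difference was −1.27 for *Pmvk* in place of −2.70 and −1.88 for *Mvk* in place of −2.92. For *Fdps* it was 3.77 in place of 6.05. The difference for *Mvd*, 1.06 points, ran from 0.0081 without AclyM-KO replicate 3 and 0.49 without control replicate 3 to 1.74 without control replicate 1 and 2.44 without AclyM-KO replicate 2.

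Ratios of each enzyme's RPKM to that of the member before it showed where along the arm the steps parted. The ratio of *Mvk* to *Hmgcs1* spans the reduction of HMG-CoA, which was not analysed here. The log2 ratio of *Hmgcs1* to *Acat2* was lower by 0.98 in AclyM-KO libraries (difference −0.98), that of *Mvk* to *Hmgcs1* differed by −0.72, and that of *Mvd* to *Pmvk* by 0.67. For these 3 pairs the groups did not overlap, at the smallest exact permutation p of 0.10. The ratios of *Pmvk* to *Mvk* (difference 0.30, exact permutation p = 0.20), *Idi1* to *Mvd* (0.62, p = 0.30 in the same exact test) and *Fdps* to *Idi1* (−0.28, p = 0.50) overlapped between the groups. Leaving out 1 library gave −1.09 to −0.91 for *Hmgcs1* to *Acat2*, −0.85 to −0.58 for *Mvk* to *Hmgcs1* and 0.52 to 0.77 for *Mvd* to *Pmvk*. The differences of the 3 overlapping pairs also kept their direction but moved in size. That for *Pmvk* to *Mvk* was 0.19 without AclyM-KO replicate 1 and 0.45 without replicate 3. That for *Idi1* to *Mvd* was 0.31 without AclyM-KO replicate 2, 0.41 without control replicate 2 and 0.87 without AclyM-KO replicate 3. That for *Fdps* to *Idi1* was −0.03 without control replicate 2, −0.08 without AclyM-KO replicate 2, −0.44 without AclyM-KO replicate 3 and −0.52 without control replicate 1. The 6 ratios share members and are not independent of each other.

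**Figure D3:**
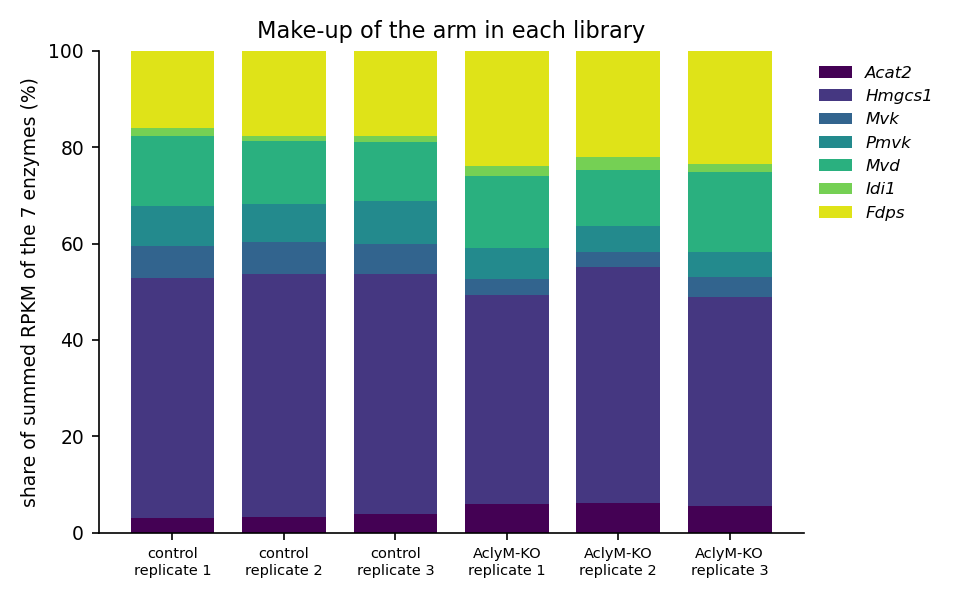
Share of each member in the summed RPKM of the 7 mevalonate arm genes, in percent, as a stacked bar for each control and AclyM-KO library, with colours giving the genes. *Fdps*, *Acat2* and *Idi1* take larger shares and *Hmgcs1*, *Mvk* and *Pmvk* smaller shares in AclyM-KO libraries, while the *Mvd* shares overlap.

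The AclyM-KO libraries did not move as a block. AclyM-KO replicate 2 was highest for 5 members (*Acat2*, *Hmgcs1*, *Pmvk*, *Idi1* and *Fdps*), at 1.75 times the mean of the other AclyM-KO libraries for *Idi1*, 1.40 times for *Hmgcs1* and 1.34 times for *Acat2*. Replicate 3 was highest for *Mvk* and *Mvd*. Replicate 2 also had the largest sum over 14 proliferation markers, 1307 CPM against 938 and 1009 CPM in AclyM-KO replicates 1 and 3 and 678 to 774 CPM in the controls, and the lowest sum of macrophage markers, with or without *Lyz2*. Of the proliferation markers 13 of 14 were higher in AclyM-KO cells (median log2 change 0.59), where 6.7% of all tested genes were. Without control replicates 1 and 2 in turn, 7 and 8 were, and the genes called higher among all those tested fell from 768 to 363 and 376. Without AclyM-KO replicate 2 all 7 members stayed higher, with log2 changes of 2.40 for *Acat2*, 1.41 for *Hmgcs1*, 0.84 for *Mvk*, 1.09 for *Pmvk*, 1.86 for *Mvd*, 2.16 for *Idi1* and 2.08 for *Fdps*, and the largest edgeR adjusted p among them was 1.63e-04, for *Mvk*. Whether the difference in proliferation or macrophage markers between the groups has a part in the changes was not tested.

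Several members have close relatives, which were examined beside them. *Acat2* lies next to *Acat3* on chromosome 17, on the same strand with a gap of 2488 bp, and the coding sequences of the pair are 97.7% identical (1164 of 1191 aligned bases), with 1 shared run of 357 bases. Of all 50-base windows of the *Acat2* transcript 45.9% occur unchanged in *Acat3*, and since reads that fit both places equally well fall under the mapping quality the authors required, both levels may be understated. *Acat3* nevertheless was counted 314, 391 and 273 times in control and 279, 741 and 328 times in AclyM-KO libraries, 27.5 ± 2.48 and 27.0 ± 2.34 CPM, with overlapping groups. Its log2 change was −0.02 (95% interval −0.26 to 0.21, edgeR adjusted p = 0.912), a value around 0 whose sign turned under other settings. The ratio of *Acat2* to *Acat3* counts was 0.274, 0.312 and 0.403 in control and 1.90, 2.27 and 1.69 in AclyM-KO libraries, so *Acat2* had fewer counts than its neighbour in all controls and more in all AclyM-KO libraries (exact permutation p = 0.10, the smallest possible).

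No other relative that was tested was called, beside 6.7% higher and 5.65% lower among all tested genes. *Acat1*, the mitochondrial thiolase, had a log2 change of −0.14, and *Pdss1*, which makes the ubiquinone side chain, 0.26. *Ggps1*, which extends FPP to geranylgeranyl diphosphate, had −0.20 and lay below all controls, as 16.6% of tested genes did. *Idi2*, another isomerase, had 0 counts in all 6 libraries. Its coding sequence is 65.6% identical to that of *Idi1*, and none of the 50-base windows of *Idi1* occurs in it.

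The surroundings of the 7 genes were then examined on the GRCm38 assembly, the build of the authors' mm10 alignments. Within 50 kb of the members lie 30 other genes with known coordinates, of which 21 were tested. Of those tested, 1 was called higher and 0 lower, beside 6.7% and 5.65% of all tested genes. The called neighbour was *Mmab*, the gene for cobalamin adenosyltransferase, an enzyme of vitamin B12 metabolism outside the mevalonate route. *Mmab* is transcribed away from *Mvk* on the opposite strand, with start sites 226 bp apart. Its counts were 140, 150 and 133 in control and 215, 579 and 263 in AclyM-KO libraries, 12 ± 0.761 and 21.2 ± 2.20 CPM, and the groups did not overlap. Its log2 change of 0.83 (SE 0.119, edgeR adjusted p = 0.00145) lay beside the 0.86 of *Mvk*, and the ratio of *Mvk* to *Mmab* counts, 0.971, 1.19 and 0.955 in control and 1.01, 1.05 and 1.11 in AclyM-KO libraries, overlapped between the groups (log2 difference 0.03, exact permutation p = 0.80). No exon of a member overlapped an exon of the transcript row used for any of these 30 neighbours. Other rows, and genes without coordinates, were not checked.

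**Figure D4:**
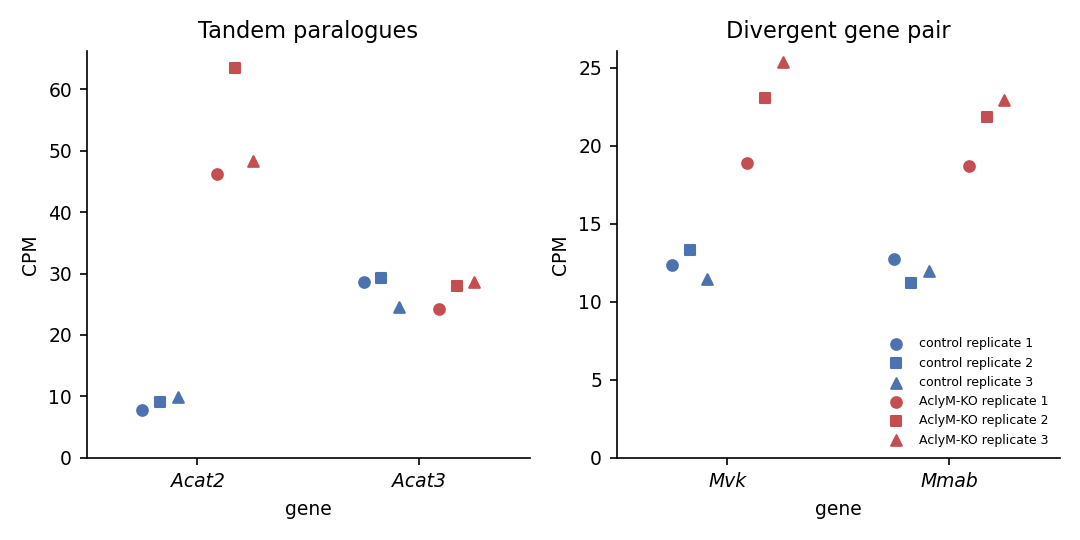
CPM of *Acat2* and its tandem paralogue *Acat3* (left) and of *Mvk* and its divergent neighbour *Mmab* (right) in each control (blue) and AclyM-KO (red) library, with marker shape giving the replicate. *Acat2* separates by group and *Acat3* does not, whereas *Mvk* and *Mmab* separate by similar amounts.

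Since the members rose together, the promoter windows of RefSeq (GRCm38.p6, 250 bases before to 50 after the start site) were searched on both strands for 3 motifs: TCACNCCAC, a core of the sterol regulatory element, CCAAT, the box of NF-Y, and GGGCGG, the GC box of Sp1. No matches overlapped in the windows of the members. Windows were at hand for 6 members, 7 windows in all because *Pmvk* has 2, and *Fdps* had none. The start sites of the windows lay 0 to 105 bases from those of the counted transcript rows of *Mvd*, *Mvk*, *Acat2*, *Hmgcs1* and *Idi1*, whereas both *Pmvk* windows belong to transcript rows that were not used, with starts 453 and 4577 bases away. The windows printed are those of the members with several CCAAT matches, among them *Mvk*, whose window is shared with *Mmab*, and that of *Acat2*, which rose most and has none. Each is written 5′ to 3′ on the strand of its gene, with matches to TCACNCCAC and CCAAT in capitals (CCAAT on the opposite strand reads ATTGG). They are *Hmgcs1* (chr13:119690101-119690400, plus strand), *Mvk* (chr5:114444019-114444318, plus strand), *Mvd* (chr8:122443373-122443672, minus strand), *Idi1* (chr13:8885356-8885655, plus strand) and *Acat2* (chr17:12960676-12960975, minus strand).
Hmgcs1: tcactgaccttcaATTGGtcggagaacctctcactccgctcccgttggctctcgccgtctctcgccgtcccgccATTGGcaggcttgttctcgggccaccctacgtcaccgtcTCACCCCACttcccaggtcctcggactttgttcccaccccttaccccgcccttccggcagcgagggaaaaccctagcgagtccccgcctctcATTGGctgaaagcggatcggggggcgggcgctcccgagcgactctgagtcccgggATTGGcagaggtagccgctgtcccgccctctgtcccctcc
Mvk: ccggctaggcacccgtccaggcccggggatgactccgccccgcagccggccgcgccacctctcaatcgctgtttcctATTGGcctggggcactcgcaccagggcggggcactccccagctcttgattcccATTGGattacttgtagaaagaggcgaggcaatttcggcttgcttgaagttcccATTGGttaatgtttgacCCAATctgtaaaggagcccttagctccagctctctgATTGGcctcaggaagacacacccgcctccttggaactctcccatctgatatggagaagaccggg
Mvd: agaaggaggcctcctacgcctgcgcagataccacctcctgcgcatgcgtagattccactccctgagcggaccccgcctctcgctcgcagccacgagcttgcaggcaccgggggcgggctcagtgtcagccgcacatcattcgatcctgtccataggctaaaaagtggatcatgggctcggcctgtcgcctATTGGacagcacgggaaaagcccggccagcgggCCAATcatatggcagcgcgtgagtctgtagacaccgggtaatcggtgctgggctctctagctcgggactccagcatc
Idi1: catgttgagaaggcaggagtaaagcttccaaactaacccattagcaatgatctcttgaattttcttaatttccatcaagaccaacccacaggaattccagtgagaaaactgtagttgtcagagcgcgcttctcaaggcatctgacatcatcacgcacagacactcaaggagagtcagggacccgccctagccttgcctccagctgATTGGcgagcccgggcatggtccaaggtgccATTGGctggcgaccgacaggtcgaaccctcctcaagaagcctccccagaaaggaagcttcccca
Acat2: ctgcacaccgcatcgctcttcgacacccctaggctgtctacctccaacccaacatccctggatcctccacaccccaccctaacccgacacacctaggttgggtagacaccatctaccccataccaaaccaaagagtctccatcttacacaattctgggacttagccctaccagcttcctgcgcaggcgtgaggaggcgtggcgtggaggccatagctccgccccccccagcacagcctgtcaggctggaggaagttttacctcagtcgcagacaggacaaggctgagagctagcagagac

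The *Hmgcs1* window held the only match among the members to TCACNCCAC, 137 bases before the start site (position −137), a motif found in 1.12% of the 11700 windows of tested genes and 1.24% of all 32851 windows. CCAAT was present in 5 of the 6 members, against 37.8% of the windows of tested genes. It occurred 5 times in the *Mvk* window and 4 times in that of *Hmgcs1*, where 0.496% of windows of tested genes held at least 5 and 1.88% at least 4. *Mvd* and *Idi1* held 2 each, and the more distant *Pmvk* window held 1. The *Mmab* window lies on the other strand over largely the same bases as the *Mvk* window, and its 5 CCAAT matches are the same boxes. *Acat2*, the member with the largest increase, had no match to CCAAT or TCACNCCAC in its window, which says only that these letters do not occur there. GGGCGG was found in 5 of the 6 members and in 62.6% of the windows of tested genes.

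The last question was how the genes around the arm behaved. Of 13 tested genes of the sterol arm, which leads from FPP to cholesterol, 12 were higher and 0 lower, against 6.7% of all tested genes called higher, with a median log2 change of 1.46. *Lss* (lanosterol synthase, log2 change 2.29), *Hsd17b7* (2.0) and *Cyp51* (1.99), the last 2 acting on sterol intermediates, rose within the range of the mevalonate arm, and *Lbr* (0.52) and *Ebp* (0.38) less than any of its members. *Fdft1*, the squalene synthase gene at the branch point, had a log2 change of −0.07 and did not pass. Its transcript shares 774 of 3698 bases with exons of *Ctsb* on the opposite strand, a gene with 304947 to 642477 counts per library, and since counting was run with default settings, for which no source used here says whether strands were kept apart, its value is uncertain.

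For the other branches from FPP the share called was near that of all genes. Of 18 tested genes for prenyl transfer to proteins and for dolichol, ubiquinone and haem A synthesis, 1 was higher and 0 lower, beside 6.7% and 5.65% of all tested genes, with a median log2 change of 0.00 and a range from −0.22 (*Pggt1b*) to 0.45 (*Pdss2*). The gene called was *Srd5a3*, a polyprenol reductase of dolichol synthesis, at 42.2 ± 1.72 CPM in control and 54.5 ± 3.32 CPM in AclyM-KO (log2 change 0.37, edgeR adjusted p = 0.0134), a call that was lost without control replicate 1 or 2. Among 7 genes of the SREBP machinery 2 were higher, against the same 6.7%. *Insig1*, which retains the SREBP complex in the endoplasmic reticulum and is itself an SREBP target, had 122.0 ± 5.40 and 340.6 ± 51.9 CPM (log2 change 1.48, edgeR adjusted p = 4.29e-06), and *Srebf2*, which encodes SREBP-2, had 205.0 ± 6.13 and 291.2 ± 23.3 CPM (0.51, edgeR adjusted p = 0.00145). *Srebf1*, the gene for SREBP-1, had a log2 change of 0.24 and did not pass (edgeR adjusted p = 0.0662), but passed without AclyM-KO replicate 2 (0.31, edgeR adjusted p = 8.89e-04) and under 3 other settings. None of the 4 genes for NF-Y subunits and Sp1 was called (median log2 change 0.17), beside 6.7% higher and 5.65% lower among all tested genes. The NF-Y genes *Nfya* (0.04), *Nfyb* (0.29) and *Nfyc* (0.38) lay above all controls, as 16.3% of tested genes did, and *Sp1* (−0.13) overlapped.

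**Figure D5:**
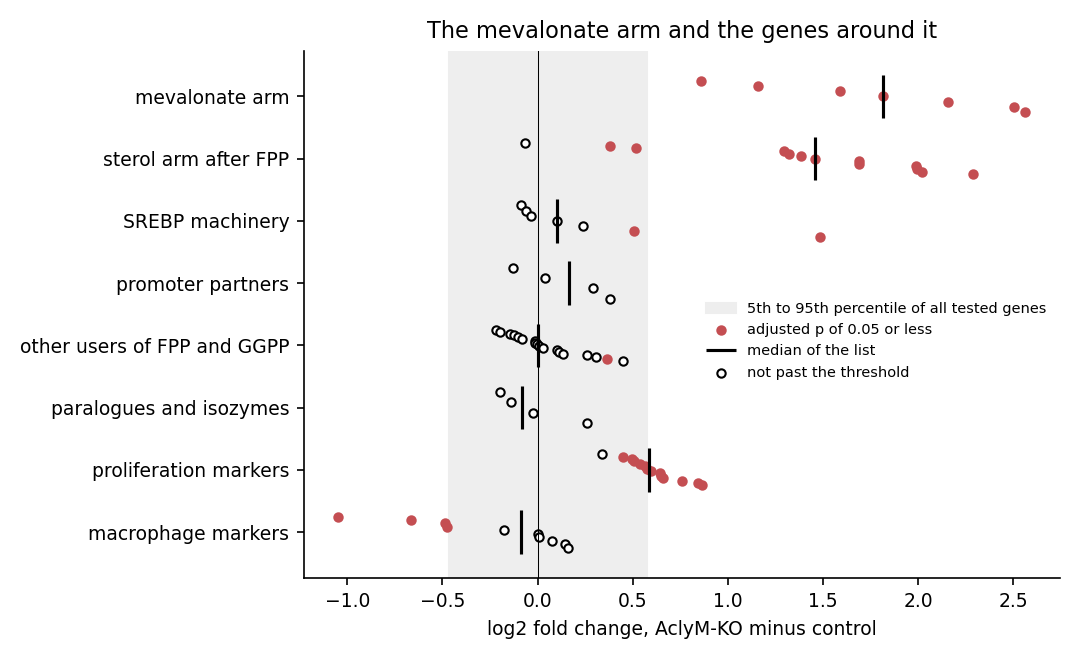
Log2 fold change (AclyM-KO minus control) of every tested gene in the mevalonate arm and in 7 lists around it. Filled red points passed an edgeR adjusted p of 0.05, open points did not, vertical bars are list medians, and the grey band spans the 5th to 95th percentile of all tested genes. The mevalonate and sterol arms lie mostly right of the band, and the other users of FPP and geranylgeranyl diphosphate (GGPP) lie within it.

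The genes whose pattern was nearest to that of the arm were taken by the root mean square distance to the mean member profile, in log2(CPM + 0.5) minus the control mean, over the 6 libraries. The nearest were *Sqle* (distance 0.065), the squalene epoxidase, and *Nsdhl* (0.085), a sterol dehydrogenase, followed by *Fasn* (0.143), *Nptxr* (0.147) and *Hsd17b7* (0.153). Among the members themselves the distance to this mean, to which each contributes, ran from 0.152 for *Hmgcs1* to 0.665 for *Mvk*. *Fasn* encodes fatty acid synthase, which also draws on cytosolic acetyl-CoA, and had a log2 change of 1.73, while *Nptxr*, a neuronal pentraxin receptor, had 3.34 to 4.55 CPM in control and 13.5 to 15.1 CPM in AclyM-KO libraries.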

How the data were processed

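Strand-specific mRNA libraries of 3 AclyM-KO and 3 control BMDM samples were read on an Illumina HiSeq instrument. The authors called bases with CASAVA 1.8.2, aligned reads to mm10 with STAR 2.5.2b, kept those with mapping quality above 15 (SAMtools 1.3.1), counted them per transcript with HOMER at default settings and deposited raw counts per RefSeq row. The table had 35745 rows, and 6 of its columns belong to no sample listed here and were not used. The 117 rows without a gene name were kept under their own identifiers. They entered the library sizes and, where they passed the filter, the tests. In 10 of 15 same-strand nested pairs the host row held fewer counts than the nested row, so rows cover exons. The RefSeq release, and how these defaults treat strand, are not given in the sources used here.

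The RefSeq row with the most counts stood for each symbol. edgeR 4.0.16 (R 4.3.3) was used with filterByExpr, TMM scaling and the quasi-likelihood test of all 6 libraries, without covariates, and p-values were adjusted by Benjamini-Hochberg over 11470 genes with a threshold of 0.05. CPM and RPKM were computed from the counts with these library sizes and transcript lengths. On simulated data the fit recovered 167 of 200 changed genes (83.5%) among 11457 tested, and 3.47% of its 173 calls were false. Shares and ratios were tested by exact permutation. The members, named genes (all members, neighbours by position, nearest 5 profiles) and lists were chosen with earlier results of these data known. Same-numbered libraries of the groups deviated together with correlations of 0.090, 0.11 and −0.05, so the numbers were not treated as pairs. Alternatives were DESeq2 1.42.0, limma 3.58.1 (voom), other scalings, filters and row choices, thinning of the deepest library, a replicate block and leaving out each library. Some listed items are not reported here. Counting error and the number of libraries limit precision.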

Additional observations from a re-analysis of the deposited data

How the results depend on the processing

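All 7 members stayed higher and past the threshold under all 16 alternative settings of the fit, with log2 changes of 2.40 to 2.64 for *Acat2*, 1.41 to 1.70 for *Hmgcs1*, 0.77 to 0.95 for *Mvk*, 1.09 to 1.21 for *Pmvk*, 1.72 to 1.87 for *Mvd*, 2.16 to 2.68 for *Idi1* and 2.08 to 2.24 for *Fdps*, and the highest adjusted p was 0.0175 for *Mvk*. With the replicate number as a block, 862 genes were higher and 721 lower, and the members changed by 2.56, 1.57, 0.85, 1.16, 1.81, 2.46 and 2.16 in pathway order, all past the threshold, although the numbers do not pair the samples. *Srebf1* also passed on total counts only, with AclyM-KO replicate 2 thinned and under voom, with log2 changes of 0.27, 0.26 and 0.29. Of the values recomputed, 496 kept their direction and side of the threshold or moved little, 21 counts moved by over 1.5 times and 5 values of *Acat3* changed sign.

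The counts over all genes moved more than the members. Against 768 higher and 648 lower genes, counting all RefSeq rows gave 1297 and 1149, a threshold of 0.01 gave 343 and 214, and a log2 change of at least 1 gave 149 and 49, in each case because more rows were tested or the rule was stricter. voom with sample weights called 1077 lower genes. Leaving out 1 library gave 363 to 1105 higher and 235 to 1031 lower genes, and the cause was not tested. Without control replicate 1, 2 or 3 the counts were 363, 376 and 384 higher and 235, 282 and 244 lower, without AclyM-KO replicate 2 1031 lower, and without AclyM-KO replicate 3 424 lower. Leaving out 1 library gave 0 to 1 higher and 0 to 1 lower genes among the other users of FPP, with *Srd5a3* lost without control replicate 1 or 2 and 1 gene lower without AclyM-KO replicate 2 and under voom. It gave 7 to 14 higher proliferation markers, with 7 and 8 without control replicates 1 and 2. The change of *Acat3* was 0.012 on total counts only and 0.0093 with AclyM-KO replicate 2 thinned, and −0.099 to 0.035 when 1 library was left out (0.0013 without control replicate 1, 0.022 without control replicate 2 and 0.035 without AclyM-KO replicate 1), none past the threshold. At 48 to 63 counts in control, *Idi1* is the member whose fold is least certain.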

Other observations

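The 3 RefSeq rows of *Pmvk* share their last 3 exons, but for the final end, and differ at the 5′ end. The row used here begins with an exon at chr3:89459118-89459464, and another row begins at chr3:89454541-89454739 and lacks an internal exon. The first row had 6, 7 and 6 more counts than the other in control replicates 1, 2 and 3 and 33, 73 and 25 more in the AclyM-KO replicates. As a share of the counts of the first row the difference was 4.84% (95% exact binomial interval 1.8 to 10.2), 4.4% (1.79 to 8.86) and 4.41% (1.64 to 9.36) in control and 11.0% (7.69 to 15.1), 9.66% (7.65 to 12) and 9.03% (5.93 to 13.0) in AclyM-KO libraries. The shares of the groups did not overlap, while the intervals of single libraries, which cover counting error only, did. A net difference of rows is not a count of reads on the distinct exons, and it was seen after the values were known.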
